A study of Mus musculus with 18 samples.

Results

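Ndrg2, Aldh3a2, Adam11, Bag2, Otud1, Cadps2, Angptl2 and Ankrd1 are 8 listed targets of miR-181 that the study picked as candidates in mouse liver tumours, out of 54838 genes measured. They were chosen by measured values of this same series: from a collection of known miR-181 targets, the authors kept genes that were lower in WT tumours than in WT non-tumour livers and higher in GKO than in WT tumours. These 2 comparisons therefore chose the genes and are described here without a test, as are the comparisons that share samples with them. Of these genes only Ndrg2 and Aldh3a2 stayed among the study's likeliest candidates after a comparison with classes of human hepatocellular carcinoma. The study then set both aside and pursued CBX7. RNA-seq was examined in 18 samples, 3 in each of 6 groups, all from C57BL/6 mice given an age of 36 weeks. WT mice carried the miR-181ab1 cluster, and GKO mice lacked it (Mir181a-1 and Mir181b-1) in every tissue, so the deletion was not limited to hepatocytes. Tumours and the liver around them (non-tumour livers) came from WT and GKO mice that received diethylnitrosamine (DEN), a carcinogen activated by hepatocytes, as 1 injection of 25 mg/kg at postnatal day 12. Normal livers came from untreated WT and GKO mice. According to the study's methods the pups were male, knockout and WT littermates shared cages, and tumours were those visible on the liver surface. A legend of the study's supplement speaks of 3 mice a group for tumour and non-tumour tissue. Whether the normal livers, which enter both tested comparisons, came from separate mice is not stated in the sources used here, nor which tumour and non-tumour liver belonged to the same mouse, so p-values measure the spread between these samples, which may be technical.

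MicroRNAs of the miR-181 family bind mRNAs mainly through their seed, bases 2 to 8 of the mature strand, usually in the 3′ UTR, and lower the level or the translation of the bound mRNA. The family is made from several loci, of which the deleted cluster is only one source. In liver, miR-181 is known for rising with fibrosis and hepatocellular carcinoma and for a role in TGF-beta signalling.

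The mature sequences are given to show what the candidates would have to pair with, in RefSeq's version (GRCm38.p6), with the seed in capitals. The first pair is encoded by the deleted cluster at chr1:137966468-137966490 and chr1:137966650-137966673 on the plus strand, and the same mature sequences also come from Mir181a-2 and Mir181b-2 at chr2:38852741-38852763 and chr2:38853845-38853868, which GKO mice keep.
miR-181a-5p: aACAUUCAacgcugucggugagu
miR-181b-5p: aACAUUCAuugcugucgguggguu
miR-181c-5p: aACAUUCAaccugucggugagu
miR-181d-5p: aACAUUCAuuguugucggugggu
All share the seed ACAUUCA. A full match in a 3′ UTR reads TGAATGT (7mer-m8), a full match followed by A reads TGAATGTA (8mer), and bases 2 to 7 alone match GAATGT (6mer). Only the sense strand of the transcript was searched, and a site was counted once, under its longest form.

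The strongest matches among the 8 genes were in Adam11 and Aldh3a2. GENCODE release 21 transcripts (GRCm38, the build mm10 that the files use) gave the sites below, each shown as 30 bases or fewer of the transcript strand that end with the match in capitals.
Adam11 8mer, chr11:102778410-102778417, plus strand: gccttgcacacgtctccccctgTGAATGTA
Adam11 8mer, chr11:102778665-102778672, plus strand: tttactacttaatcttaactgaTGAATGTA
Aldh3a2 8mer, chr11:61245118-61245125, minus strand: aatgagaacgtaacatgcttatTGAATGTA
Aldh3a2 7mer-m8, chr11:61245541-61245547, minus strand: aaatcccctcaagatcctcaagtTGAATGT
Ndrg2 7mer-m8, chr14:51905626-51905632, minus strand: tctctgaaggcaatagtcccaaaTGAATGT
Otud1 7mer-m8, chr2:19659566-19659572, plus strand: ggtgtaatgccttaatcagttttTGAATGT
A further 7mer-m8 of Aldh3a2 (chr11:61248249-61248255) lies only in the UTR of another transcript. Cadps2 and Angptl2 held nothing longer than the 6mer, shown here for contrast.
Cadps2 6mer, chr6:23409511-23409516, minus strand: gctatagcagatatgtagcatctgGAATGT
Angptl2 6mer, chr2:33246793-33246798, plus strand: cttggcactgcctggattttcccaGAATGT
Bag2 and Ankrd1 held none of these matches in an annotated 3′ UTR.

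Thus 4 of the 8 genes held an 8mer or 7mer-m8, against 18.7% of 11760 genes with an annotated 3′ UTR that averaged 0.5 TPM or more over the tumours, and 6 of 8 held a match of any of the 4 kinds searched (8mer, 7mer-m8, 6mer and the 6mer followed by A), against 36.3%. Because the authors began with known miR-181 targets, these counts describe the choice and are no independent result. The share of genes with an 8mer or 7mer-m8 grows with UTR length. Among genes with a longest UTR of similar length to that of the candidate it was 29.1% for Adam11 (2583 bases), 20.2% for Aldh3a2 (1501 bases), 15.6% for Otud1 (1157 bases) and 12.4% for Ndrg2 (869 bases). A match is a description of the letters, and binding was not measured.

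**Figure D1:**
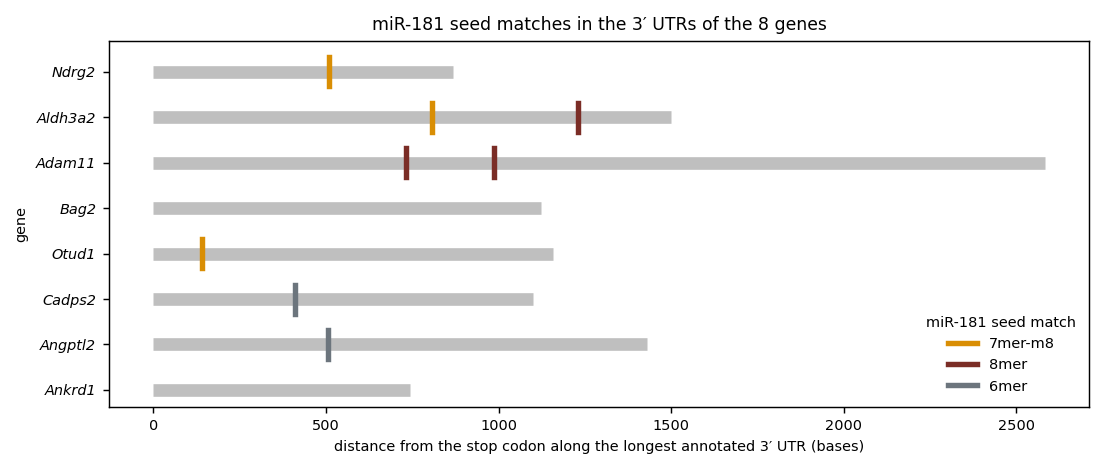
Grey bars show the longest annotated 3′ UTR of each gene from the stop codon (x axis, bases) and coloured ticks the miR-181 seed matches in it by kind. Adam11 holds 2 8mers, at 731 and 986 bases from the stop codon, and Bag2 and Ankrd1 hold no match.

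The whole series needs few words. The libraries held 11925055 to 20751356 reads on genes, recovered from the deposited TPM, a level per base of transcript whose sum is equal in all samples. The miR-181 genes could not be used to check the genotypes, since Mir181a-1 was listed at 0 in 17 samples with 1 read in GKO tumour 3 and the other 5 Mir181 genes at 0 in all 18 samples of these long-RNA libraries. Hepatocyte markers (10 genes) were high in every sample, as labelled. They summed to 67000 to 99100 TPM in normal and non-tumour livers and 174000 to 210000 TPM in tumours. Of these 10 genes 5 had a higher and 5 a lower mean in tumours than in non-tumour livers, in each genotype. Markers of pancreatic acinar cells stayed at 3.09 TPM or less and those of striated muscle at 5.77 TPM or less. WT tumour 3 (r of 0.919 and 0.921 with the other WT tumours, 0.982 between these) and WT non-tumour liver 2 (r of 0.929 and 0.933, against 0.969) stood apart from their groups, and the main values that rest on them are also given without them. WT tumours 1 and 2 still differed by far more than sampling noise (chi-square of 24.4 per degree of freedom). In these bulk samples fewer cells of a type and less RNA per cell cannot be told apart.

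The 8 genes spanned very different levels, and TPM, being per length, allows them to be compared. Ndrg2 was the most abundant in every group, at 143 to 931 TPM over the 18 samples, followed by Aldh3a2 at 12.2 to 326 TPM. Otud1 reached 29.2 TPM and Adam11 18.3 TPM, whereas Angptl2, Ankrd1, Cadps2 and Bag2 never exceeded 4.30 TPM. Behind the lowest values stood few reads: 0 to 101 for Ankrd1, 4 to 74 for Bag2, and 6, 14 and 29 for Adam11 in WT tumours 1 to 3. Intervals from such counts would cover counting error only, because the reads carry no molecular identifiers.

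**Figure D2:**
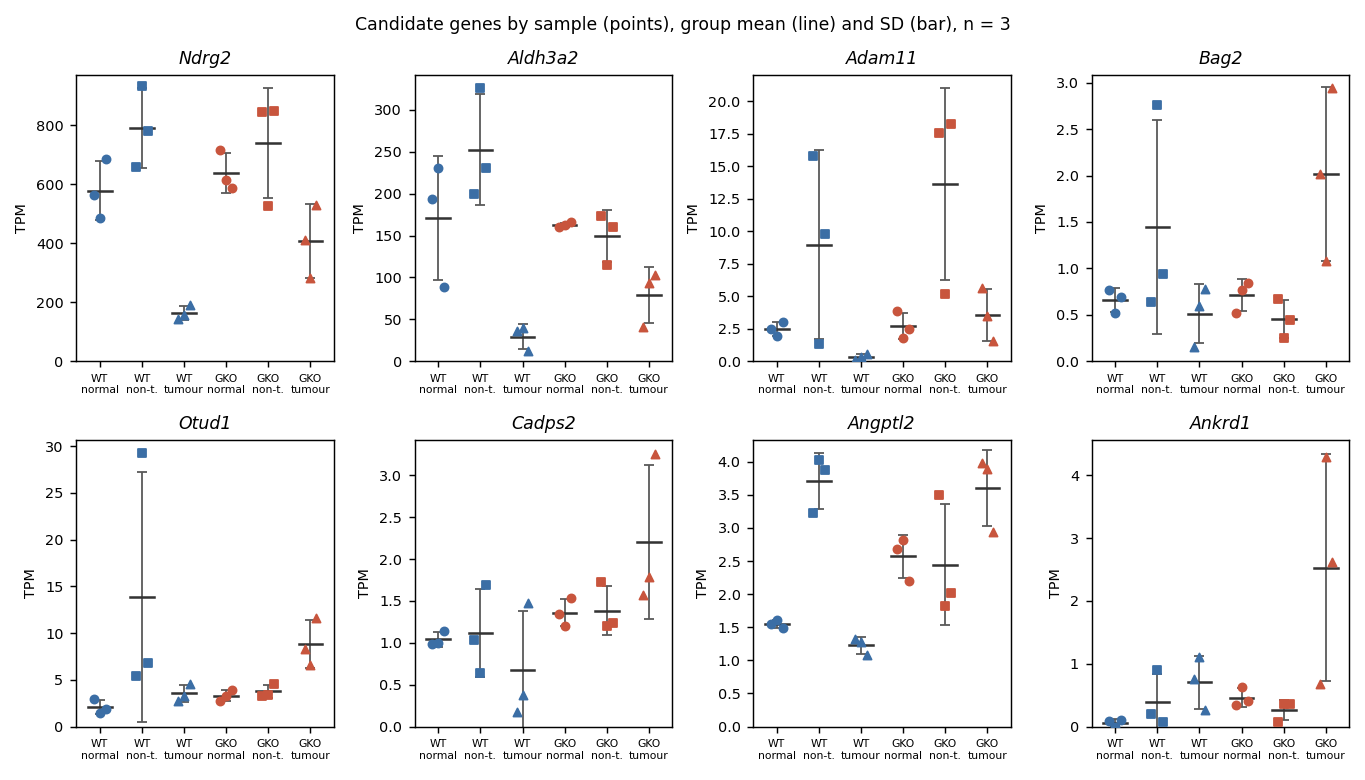
Each panel shows 1 gene in TPM (y axis, from 0), with the 3 samples of each group as points, the mean as a line and the SD as a bar (n = 3, bars cut at 0), WT in blue and GKO in red. Ndrg2, Aldh3a2 and Adam11 are lowest in WT tumours, the mean of Bag2 and Ankrd1 is highest in GKO tumours, and WT non-tumour liver 2 stands out in Otud1 and Bag2.

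The values that chose the genes come first. Counts of genes with a higher or lower mean, here and throughout, are of means of log2(TPM + 1). Between GKO and WT tumours all 8 had a higher mean in GKO tumours, as did 60% of all genes, and for 7 of them every GKO tumour was above every WT tumour, here called higher without overlap, beside 9.88% of all genes (4.78% were lower without overlap). Log2 fold changes, here and throughout on log2(TPM + 1) with their standard errors from limma, ran from 0.93 for Ankrd1 to 1.69 for Adam11, with a median of 1.07 beside 0.09 over all genes. Between WT tumours and WT non-tumour livers 7 of the 8 had a lower mean in tumours (47.9% of all genes had a higher one) and 5 were lower without overlap (Ndrg2, Aldh3a2, Adam11, Otud1 and Angptl2), beside 13.9% of all genes. Bag2 and Cadps2 overlapped, and Ankrd1 had a higher mean in WT tumours, opposite to the direction sought. Without WT tumour 3 the same 7 were apart in the first comparison, where Aldh3a2 moved most, from 1.45 to 0.93. Bag2 and Cadps2 then joined the 5 in the second, making 7, with 23.0% of all genes then higher in the first and 23.0% lower in the second without overlap. Without WT non-tumour liver 2 the second comparison had 6 apart, the 5 and Ankrd1, which was higher. Of all genes 20.7% were then lower and 22.4% higher without overlap. Both comparisons use the same WT tumours. Their numbers are what the selection asked for, so nothing further is read from them.

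What the selection did not look at was where the untreated livers lie. Set against normal livers of the same genotype, the candidates divided into those that were low in tumours of both genotypes and those that were not. Ndrg2 and Aldh3a2 were below the mean of the normal livers in all 3 tumours of each genotype, on average less so in GKO. Otud1 and Ankrd1 were above it in all 3 tumours of each genotype, on average more so in GKO. For Angptl2 all 3 WT tumours were below and all 3 GKO tumours above. Bag2 and Cadps2 were above it in 1 of 3 WT tumours and in all 3 GKO tumours, and Adam11 in 0 of 3 WT and 2 of 3 GKO tumours. The gap between GKO and WT tumours in these values is what the genes were chosen for, and single tumours departed from it. Relative to that mean on the log2 scale, Aldh3a2 was at -1.99 in GKO tumour 1 and -1.97 in WT tumour 2. Ankrd1 was at 0.2 in GKO tumour 1, below WT tumours 1 to 3 (0.72, 0.98 and 0.24).

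**Figure D3:**
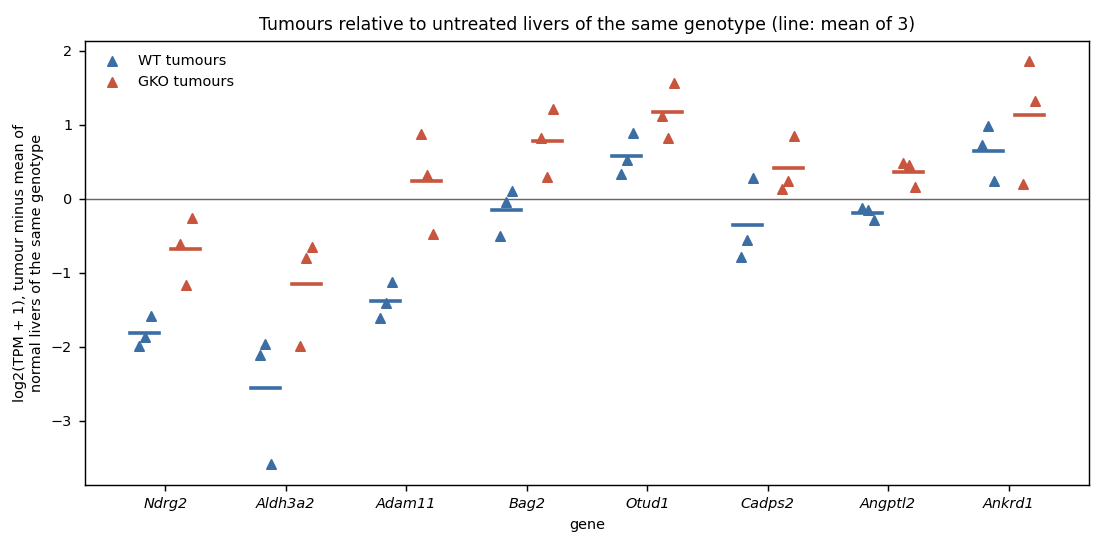
For each gene the log2(TPM + 1) of each tumour is drawn relative to the mean of the 3 normal livers of its own genotype (y axis, 0 is that mean), WT in blue and GKO in red, with lines at the means. Ndrg2 and Aldh3a2 lie below 0 in all 6 tumours and Otud1 and Ankrd1 above 0 in all 6.

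In counts, GKO tumours against GKO normal livers gave 5 genes higher without overlap (Bag2, Otud1, Cadps2, Angptl2 and Ankrd1) and 2 lower (Ndrg2 and Aldh3a2), where 34.6% of all genes were higher and 8.74% lower without overlap (43.3% in either direction) and 68.6% had a higher mean. This rested on the scaling: all genes had a median log2 fold change of 0.31 in this comparison, and after median centring or quantile normalization only 3 genes remained apart, Otud1 higher and Ndrg2 and Aldh3a2 lower. WT tumours against WT normal livers gave 4 genes lower (Ndrg2, Aldh3a2, Adam11 and Angptl2) and Ankrd1 higher, beside 11.4% and 35.6% of all genes (47% in either direction). The WT comparison had a median of 0.29 over all genes. Without WT tumour 3 Cadps2 was lower without overlap too, its log2 fold change going from -0.36 to -0.68.

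Ndrg2 (ENSMUSG00000004558, chr14:51905271-51914158, minus strand), a member of the N-myc downstream-regulated family that is abundant in liver and has been described as a growth suppressor, had 564, 486 and 684 TPM in WT normal livers 1 to 3. WT non-tumour livers had 659, 931 and 780 TPM, and WT tumours 143, 156 and 190 TPM. All 3 WT tumours were thus far below every other WT sample. GKO normal livers had 715, 614 and 586 TPM, GKO non-tumour livers 843, 524 and 849 TPM, and GKO tumours 412, 281 and 529 TPM. GKO tumours lay between WT tumours and livers, with GKO tumour 3 within the range of the non-tumour livers. Relative to normal livers of the same genotype the log2 fold change was -1.81 (SE 0.21) in WT and -0.69 (SE 0.27) in GKO tumours. In the ordering of the 6 groups only WT tumours were separated from their neighbour, the GKO tumours. Of its family, Ndrg1, a hypoxia-responsive relative, was also lower without overlap in WT tumours than in WT non-tumour livers (1.47 ± 0.53 against 7.31 ± 6.49 TPM, SD, n = 3 each, log2 fold change -1.49). Without WT non-tumour liver 2, at 14.7 TPM, the latter mean was 3.59 TPM and the log2 fold change of Ndrg1 -0.89, still without overlap.

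Aldh3a2 (ENSMUSG00000010025, chr11:61223417-61267464, minus strand) encodes fatty aldehyde dehydrogenase, which oxidises long-chain aldehydes and is a known target of PPAR alpha. WT normal livers had 193, 231 and 88.6 TPM, WT non-tumour livers 200, 326 and 231 TPM, and WT tumours 35.9, 39.6 and 12.2 TPM. GKO normal livers lay close together at 160, 163 and 166 TPM, GKO non-tumour livers had 173, 114 and 160 TPM, and GKO tumours 40.3, 93.3 and 102 TPM. GKO tumour 1, at 40.3 TPM, was next to the highest WT tumour at 39.6 TPM, so the separation of the tumour groups hung on a narrow gap. Both tumour groups were below all livers except that GKO tumours 2 and 3 exceeded WT normal liver 3. The log2 fold change to normal livers of the same genotype was -2.56 (SE 0.53) in WT and -1.15 (SE 0.35) in GKO tumours.

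Other genes of these pathways were counted from lists set up around each candidate. Among 14 other aldehyde dehydrogenases above 0.5 TPM, 11 had a lower mean in WT tumours than WT non-tumour livers and 9 were lower without overlap, beside 13.9% of all genes, most of all Aldh1a1 (retinal dehydrogenase, 63.2 ± 50.1 against 714 TPM, log2 fold change -3.68), whereas Aldh1b1, a mitochondrial member, was higher (243 ± 24.0 against 44.9 TPM, 2.42). In GKO against WT tumours 10 of these 14 had a higher mean, beside 60% of all genes, and 0 were without overlap, beside 14.7%. Of 19 other PPAR alpha targets, 16 had a lower mean in WT tumours than WT non-tumour livers, 12 of them without overlap beside 13.9% of all genes, with a median of -1.41 beside -0.02. Cyp4a10, a fatty acid hydroxylase, gave the widest difference (10.3 ± 0.831 against 484 TPM, SD, n = 3, log2 fold change -5.34). In GKO against WT tumours 18 of the 19 had a higher mean with a median of 0.77 beside 0.09, but only Acadm (medium-chain acyl-CoA dehydrogenase) was higher without overlap, beside 9.88% of all genes, at 150, 160 and 258 TPM in GKO against 106, 88.3 and 132 TPM in WT tumours. Without WT tumour 3, 10 of the 19 were higher without overlap, beside 23.0% of all genes, and the median was 1.13.

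Adam11 (ENSMUSG00000020926, chr11:102761439-102780262, plus strand) encodes a catalytically inactive member of the ADAM family best known at synapses. Its level was 2.49, 1.95 and 2.99 TPM in WT and 3.84, 1.82 and 2.49 TPM in GKO normal livers. After DEN it was 15.8, 1.34 and 9.80 TPM in WT and 17.5, 5.16 and 18.3 TPM in GKO non-tumour livers. The second sample of each genotype was thus the low one, and in WT it was below all normal livers. WT tumours had 0.128, 0.301 and 0.580 TPM, the lowest of all groups and free of overlap with each of the others, and GKO tumours had 5.61, 3.52 and 1.59 TPM, around the level of normal livers.

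Adam11 carried the one sizeable difference between the DEN-treated and untreated livers of GKO mice, a comparison in which no sample had been used for the selection. GKO non-tumour livers had 13.7 ± 7.37 TPM and GKO normal livers 2.72 ± 1.03 TPM (SD, n = 3 each), the groups did not overlap, and the log2 fold change was 1.84 (SE 0.45). It did not pass the test: the adjusted p was 0.737 from limma with Benjamini-Hochberg adjustment over 13530 genes (unadjusted 0.0034), and without GKO non-tumour liver 2 it was 0.0813 with a log2 fold change of 2.38. limma called 0 of the 7 candidates above the filter, and 1 had an unadjusted p under 0.05. Of all genes 0% were called, 5.2% (703) had an unadjusted p under 0.05, 7.12% were higher and 1.6% lower without overlap (8.73% in either direction), and voom on the recovered reads also called 0. Of the 8 candidates 4 had a higher mean in non-tumour livers, as did 65% of all genes. The other 6 above the filter differed by -0.24 to 0.18 on the log2 scale, with standard errors of 0.20 to 0.25 that are about as large.

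In WT the same step of treatment shares its non-tumour livers with the selection and is given as values. All 8 candidates had a higher mean after DEN, as did 79.7% of all genes, and 2 were higher without overlap (Otud1 and Angptl2), beside 31% of all genes (2.9% were lower, 33.9% in all). Adam11 had a log2 fold change of 1.12 (SE 0.67) with overlap, and of 1.97 without overlap when WT non-tumour liver 2 was left out. Macrophage markers varied in the same samples: their 10 genes summed to 215, 55.1 and 371 TPM in WT and 597, 110 and 234 TPM in GKO non-tumour livers, against 73.5 to 128 TPM in WT and 68.8 to 182 TPM in GKO normal livers. Clec4f, which defines Kupffer cells, had 75.2, 5.95 and 124 TPM in WT and 196, 55.6 and 106 TPM in GKO non-tumour livers, and no macrophage marker was at 0 in any sample. In tumours the macrophage sum was 34.1 to 72.8 TPM in WT and 39.2 to 125 TPM in GKO, and GKO tumour 1, with the highest Adam11 among tumours, had the lowest GKO sum. The markers did not all follow the sum. Cx3cr1 was highest of the 18 samples in GKO tumour 1 (3.17 TPM) and Ccr2 in GKO tumour 2 (0.959 TPM). Between GKO tumours and GKO non-tumour livers 4 of the 10 had a higher and 6 a lower mean in tumours. Without overlap 2 were higher and 4 lower, beside 25.7% and 12.7% of all genes. The part of these cells in the Adam11 values was not tested. Plekhn1, Ifitm1 and Gm11266 had the patterns most like Adam11 over the 18 samples (Pearson's r of 0.921, 0.894 and 0.879 among 13913 genes).

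Bag2 (ENSMUSG00000042215, chr1:33745484-33757795, minus strand) encodes a co-chaperone that acts on HSP70 and restrains the ubiquitin ligase CHIP. It shares 131 exonic bases with Gm37905 on the opposite strand, and without stranded counting reads of the pair cannot be told apart. Normal livers had 0.770, 0.515 and 0.689 TPM in WT and 0.520, 0.771 and 0.845 TPM in GKO. WT tumours had 0.158, 0.597 and 0.778 TPM, of which WT tumour 1 was below the WT normal livers, WT tumour 2 within their range and WT tumour 3 just above it. GKO tumours had 2.02, 1.08 and 2.95 TPM, above all GKO livers and all WT tumours. WT non-tumour livers had 0.637, 2.76 and 0.937 TPM and GKO non-tumour livers 0.668, 0.250 and 0.446 TPM. The mean of WT non-tumour livers was 1.45 TPM, and 0.787 TPM without WT non-tumour liver 2, which moved the log2 fold change of WT tumours to them from -0.62 to -0.26.

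Otud1 (ENSMUSG00000043415, chr2:19657752-19660583, plus strand) encodes a deubiquitinase of the OTU family. WT normal livers had 2.91, 1.43 and 1.83 TPM and GKO normal livers 2.76, 3.24 and 3.94 TPM. WT tumours had 2.78, 3.31 and 4.56 TPM, so they were not low beside untreated livers, and GKO tumours had 8.29, 6.56 and 11.7 TPM, above all GKO livers. WT non-tumour livers had 5.41, 29.2 and 6.79 TPM, higher than both other WT groups without overlap, and GKO non-tumour livers had 3.29, 3.42 and 4.60 TPM. The log2 fold change of WT tumours to WT non-tumour livers was -1.35 (SE 0.58), and -0.66 without WT non-tumour liver 2, still without overlap. That of WT non-tumour to WT normal livers was 1.94 (SE 0.57), and 1.24 without that sample. Among the WT groups, Otud1 in tumours was thus low against the DEN-treated livers and not against the untreated ones.

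Bag2 and Otud1 varied together across the 18 samples (Pearson's r = 0.83), also after subtracting the group means (r = 0.87), with WT non-tumour liver 2 high in both. Ndrg2 and Aldh3a2 had the same r of 0.83 over all samples but -0.14 after subtracting the group means, so within groups they did not vary together. These are descriptions over samples that share libraries. Of 15 other BAG and HSP70 genes in the tumour comparison 8 had a higher and 7 a lower mean in GKO (5 and 10 without WT tumour 3), and the constitutive chaperone Hspa8 was lower without overlap (501 ± 24.3 against 692 TPM, log2 fold change -0.46), beside 4.78% of all genes. Of 12 other OTU deubiquitinases 8 had a higher mean in GKO, beside 60% of all genes. Tnfaip3 (A20, which restrains NF-kappaB signalling) was higher (1.12 ± 0.24 against 0.528 TPM) and Yod1 lower (3.14 ± 0.218 against 4.44 TPM) without overlap, beside 9.88% and 4.78% of all genes.

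Cadps2 (ENSMUSG00000017978, chr6:23262773-23839421, minus strand) encodes a calcium-dependent activator of secretion that primes dense-core vesicles. It had 0.985, 1.00 and 1.14 TPM in WT and 1.34, 1.21 and 1.54 TPM in GKO normal livers. WT tumours had 0.177, 0.382 and 1.48 TPM, with WT tumour 3 above all WT normal livers, and GKO tumours had 1.57, 1.79 and 3.26 TPM. WT tumour 3 was just below GKO tumour 1, so the tumour groups were only narrowly apart. Without WT tumour 3 the log2 fold change of GKO over WT tumours was 1.29 in place of 0.97. Non-tumour livers had 1.03, 0.640 and 1.69 TPM in WT and 1.72, 1.20 and 1.23 TPM in GKO. Of 10 other vesicle genes, 6 had a higher mean in GKO than WT tumours, beside 60% of all genes. Only Vamp2, a vesicle SNARE, did so without overlap (9.32 ± 1.44 against 5.89 TPM, log2 fold change 0.58), beside 9.88% of all genes. Both counts are near the shares over all genes.

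Angptl2 (ENSMUSG00000004105, chr2:33216069-33247717, plus strand, within Ralgps1 on the other strand with no shared exonic base) encodes a secreted angiopoietin-like protein linked to inflammation. Its replicates were among the closest of the 8 genes. WT normal livers had 1.55, 1.61 and 1.49 TPM, WT non-tumour livers 3.23, 4.03 and 3.88 TPM, and WT tumours 1.33, 1.28 and 1.08 TPM, 3 groups without overlap. GKO normal livers had 2.69, 2.82 and 2.21 TPM, GKO non-tumour livers 3.49, 1.83 and 2.01 TPM, and GKO tumours 3.98, 3.89 and 2.95 TPM. GKO tumours 1 and 2 were within the range of WT non-tumour livers and GKO tumour 3 below it, while WT tumours were 0.793 times the mean of WT normal livers, a small step down. Of 7 other genes of the family and its receptors, 5 had a higher and 2 a lower mean in GKO than WT tumours, where 60% of all genes had a higher one. Only Angptl8, an insulin-induced regulator of lipoprotein lipase, was without overlap. It was lower, with 219, 422 and 235 TPM in GKO and 653, 782 and 433 TPM in WT tumours (log2 fold change -1.11, SE 0.35), beside 4.78% of all genes.

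Ankrd1 (ENSMUSG00000024803, chr19:36111961-36120099, minus strand) encodes a nuclear ankyrin repeat protein first known from striated muscle and is a classic target of YAP and TEAD. WT normal livers held 2, 0 and 3 reads, at or under the floor of 3 reads. GKO normal livers held 8, 15 and 10 reads (0.347, 0.633 and 0.399 TPM), on average at least 3.73-fold higher when WT is set at the floor in each library. WT tumours had 0.754, 1.1 and 0.257 TPM (at least 5.72-fold higher than WT normal livers), so WT tumours were the higher group here too. GKO tumours had 0.675, 4.30 and 2.62 TPM, and GKO tumour 1 lay within the range of the WT tumours. Non-tumour livers had 0.207, 0.902 and 0.0677 TPM in WT and 0.0724, 0.362 and 0.351 TPM in GKO.

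The genes with the pattern most like Ankrd1 were Tead2, a partner of YAP, Sox4 and Thbs1 (r of 0.927, 0.919 and 0.912). Tead2 had 0.927, 3.78 and 2.37 TPM in GKO tumours, in the same order of samples as Ankrd1, and 0.808, 0.788 and 0.497 TPM in WT tumours. Since Tead2 was picked for its r with Ankrd1 over these same samples, the shared order is part of that choice. Of 17 other YAP and TEAD targets, 16 had a higher mean in GKO than WT tumours and 7 were higher without overlap beside 9.88% of all genes, with a median of 0.41 beside 0.09. Without WT tumour 3, 15 had a higher mean, 7 were higher and 1 lower without overlap beside 23.0% and 17.2% of all genes, and the median was 0.26. Markers of stellate cells and fibroblasts also differed between these tumours, their 14 genes summing to 124 to 223 TPM in GKO and 65.3 to 118 TPM in WT without overlap. Of the 12 above the filter 9 had a higher and 3 a lower mean in GKO, and 5 were higher without overlap, beside 60% and 9.88% of all genes. The part of these cells in the values of the YAP and TEAD list was not tested. In the YAP and TEAD list Igfbp3, which binds insulin-like growth factors, was the leading one at 42.3, 52.7 and 39.2 TPM in GKO against 14.1, 18.5 and 6.95 TPM in WT tumours (log2 fold change 1.77, SE 0.35). Between WT tumours and WT non-tumour livers the same list was split, 7 with a higher and 8 with a lower mean, with Ctgf higher (7.94 ± 2.24 against 2.43 TPM) and Cyr61 lower (7.95 ± 2.11 against 24.6 TPM) without overlap. Without WT non-tumour liver 2, at 48.2 TPM of Cyr61, the latter mean was 12.8 TPM and the log2 fold change -0.65 in place of -1.26, and the list had 8 with a higher and 7 with a lower mean.

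Cholangiocyte markers were high in the same 2 GKO tumours as Ankrd1. Their 7 genes summed to 48.7, 969 and 565 TPM in GKO tumours 1 to 3, mostly Spp1 (34.0, 934 and 536 TPM), a gene not limited to these cells. Without Spp1 the other 6 summed to 14.8, 35.2 and 28.9 TPM, against 17.2 to 21.9 TPM in WT tumours and 15.7 to 22.3 TPM in GKO normal livers. Krt19, a defining keratin, had 1.23, 5.47 and 1.05 TPM in GKO tumours and 5.89 TPM in GKO normal liver 2. Epcam had 1.53, 6.13 and 3.05 TPM and Sox9 0.471, 12.7 and 8.19 TPM in GKO tumours, both in the order of Ankrd1, while Sox9 reached 11.5 TPM in WT tumours too. The part of these cells in the Ankrd1 values was not tested. Striated muscle markers such as Nppa, Myl2 and Ckm were at 0 in 18, 17 and 15 samples.

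The genotype was then compared in the 3 tissues. In normal livers, which the selection had not used, all 8 genes had a log2 fold change of GKO over WT above 0, as did 62.4% of all genes. For Aldh3a2 it was 0.04, while its mean TPM was lower in GKO (163 against 171 TPM). Without overlap 3 genes were higher (Cadps2, Angptl2 and Ankrd1) and 0 lower, beside 6.23% and 1.73% of all genes (7.95% in either direction). After median centring or quantile normalization 2 of these 3 (Angptl2 and Ankrd1) were still apart, and the differences of Adam11 and Bag2 changed sign, as did that of Aldh3a2 after median centring. None passed the test: limma called 0 of the 7 candidates above the filter and 0% of all 13099 genes, voom on the recovered reads called 0, and 1 candidate had an unadjusted p under 0.05 beside 3.96% (519) of all genes. That candidate was Angptl2, at 2.57 ± 0.324 TPM in GKO and 1.55 ± 0.0588 TPM in WT normal livers (SD, n = 3 each), with a log2 fold change of 0.48 (SE 0.17) and an adjusted p of 0.999 from limma. Otud1 had a log2 fold change of 0.52 (SE 0.23) with overlap, and the other 5 above the filter had 0.04 to 0.21. Ankrd1 was below the filter of a mean of 0.5 TPM, and without that filter its adjusted p from limma was 0.94.

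Markers of some non-parenchymal cells differed between these same normal livers. The sums for macrophages (68.8 to 182 TPM in GKO and 73.5 to 128 TPM in WT), T cells (3.75 to 7.23 and 3.65 to 6.77 TPM) and B cells (23.7 to 39.8 and 23.9 to 27.5 TPM) overlapped. Endothelial markers (10 genes) summed to 113 to 133 TPM in GKO and 63.2 to 73.4 TPM in WT, those of stellate cells and fibroblasts (14 genes) to 84.3 to 124 and 55.4 to 67.7 TPM, those of cholangiocytes to 91.3 to 101 and 47.2 to 56.9 TPM, and those of mesothelial cells (5 genes) to 7.15 to 9.59 and 0.269 to 1.25 TPM. In each of the endothelial, stellate, cholangiocyte and mesothelial lists the sums did not overlap. That of cholangiocytes, however, rested on Spp1 (69.0 to 81.9 TPM in GKO and 27.0 to 40.3 TPM in WT). Without Spp1 the other 6 summed to 19.6, 22.3 and 15.7 TPM in GKO and 12.7, 20.1 and 16.6 TPM in WT, with overlap. Of the 5 cholangiocyte genes above the filter 3 had a higher and 2 a lower mean in GKO, and 2 were higher without overlap. Of the stellate genes above the filter 12 of 12 had a higher mean in GKO, 8 of them without overlap, and of the mesothelial genes 3 of 3, all without overlap, beside 62.4% and 6.23% of all genes, with 0 called by limma. Their part in the values of Angptl2, Cadps2 and Ankrd1 was not tested.

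**Figure D4:**
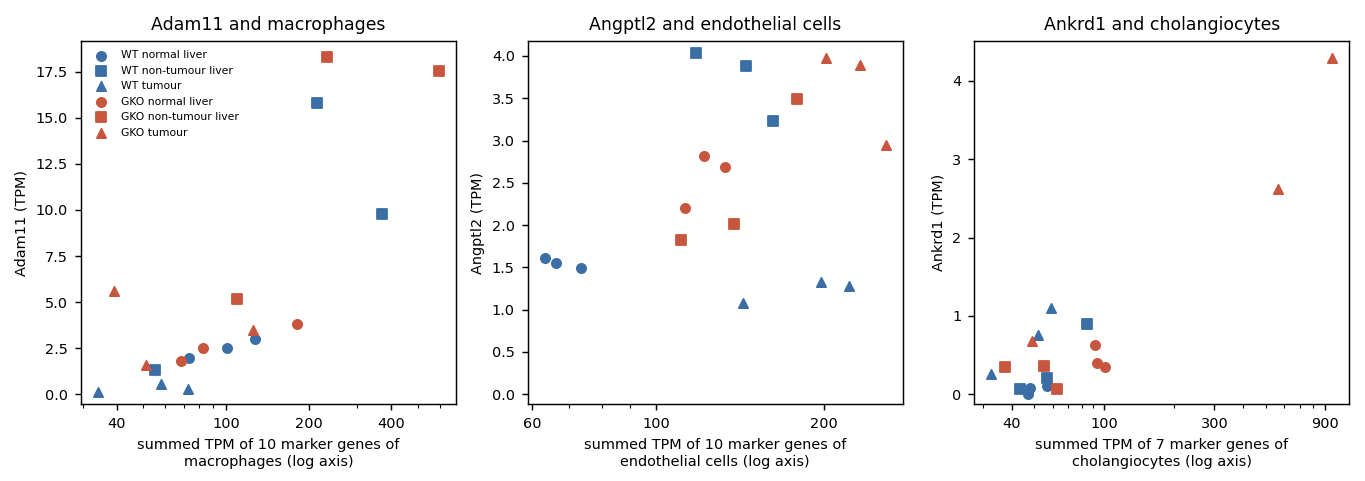
Adam11, Angptl2 and Ankrd1 in TPM (y axes) are plotted against the summed TPM of marker genes of macrophages, endothelial cells and cholangiocytes (x axes, log scale) in all 18 samples, with WT in blue, GKO in red and the tissue as the symbol. WT tumours have little Angptl2 at an endothelial sum of 143 to 222 TPM, and GKO tumours 2 and 3 are high in both Ankrd1 and the cholangiocyte sum.

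In non-tumour livers after DEN the order was different. 6 of the 8 genes had a lower mean in GKO than WT, where 33.5% of all genes had a higher one, and 2 were lower without overlap (Aldh3a2 and Otud1), beside 9.32% of all genes (13.2% in either direction). Aldh3a2 had a log2 fold change of -0.75 (SE 0.28) and Otud1 of -1.28 (SE 0.56), and without WT non-tumour liver 2 these were -0.55 and -0.58, both still without overlap. Both genes had the opposite sign in tumours, 1.45 (SE 0.53) and 1.1 (SE 0.27). Ndrg2 differed by -0.12 (SE 0.28) in non-tumour livers and 0.15 (SE 0.19) in normal livers, against 1.28 (SE 0.29) in tumours. Without WT non-tumour liver 2, 5 of the 8 had a lower mean in GKO on the log2 scale and 4 a lower mean TPM. Ndrg2 (0.01), Adam11 (-0.05, 0.79 with that sample) and Ankrd1 (0.14) then changed sign on the log2 scale. These differences between tissues were not tested, since the tumours had chosen the genes.

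**Figure D5:**
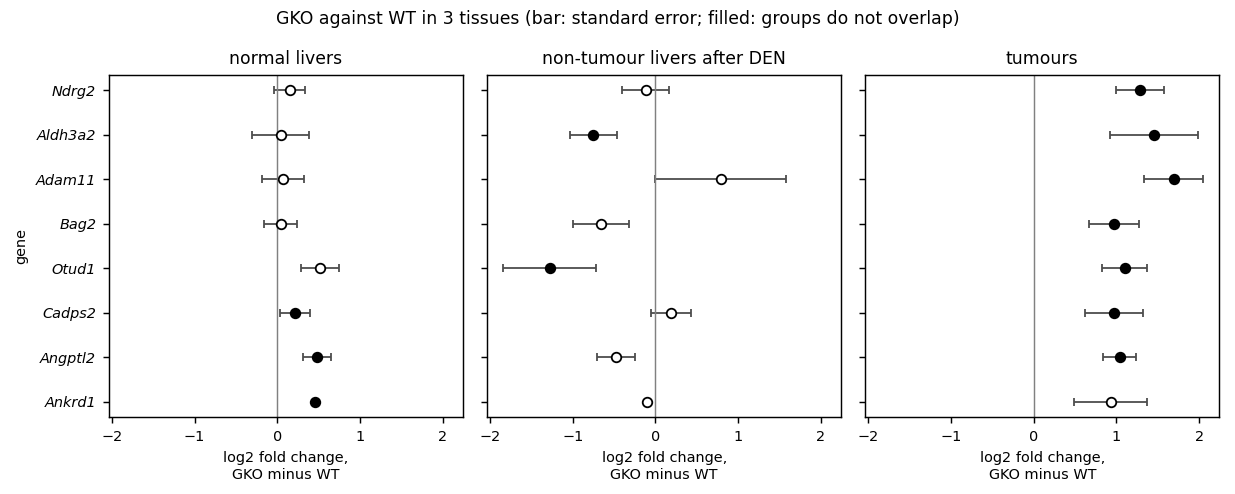
Points give the log2 fold change of GKO over WT for each gene (rows) in normal livers, non-tumour livers and tumours, on log2(TPM + 1) with standard errors as bars, and filled points where the groups do not overlap. Ankrd1 has no bar in the first 2 panels, being below the filter there, and all 8 points lie above 0 in tumours because the genes were chosen for it.

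GKO tumours against GKO non-tumour livers, which share the GKO tumours with the selection, complete the picture. Bag2 (1.01, SE 0.27), Otud1 (1.02, SE 0.25) and Ankrd1 (1.34, SE 0.40) were higher without overlap in tumours, beside 25.7% of all genes, and Aldh3a2 (-1.0, SE 0.39) lower, beside 12.7% (38.3% in either direction, and 62.7% had a higher mean). Ndrg2 (-0.87, SE 0.33) and Adam11 (-1.61, SE 0.52) had lower means with overlap. The other 2, Cadps2 (0.4, SE 0.25) and Angptl2 (0.44, SE 0.24), had higher means with overlap.

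The liver genes whose patterns were most like Ndrg2 were Rdh7 (a retinol dehydrogenase), Nat8f1 and Baat (which conjugates bile acids), with r of 0.961, 0.958 and 0.947 over the 18 samples. Rgn (regucalcin), Ces1d and Ccdc157 were most like Aldh3a2 (r of 0.921, 0.918 and 0.917), and Rgn ran from 37.3 TPM in WT tumour 3 to 3340 TPM in WT non-tumour liver 2, the lowest and highest samples of Aldh3a2 too. The leading genes for the other candidates were Sh2d4a for Bag2 (r = 0.897), Cnn3 for Otud1 (r = 0.921), Ipmk for Cadps2 (r = 0.872) and Dnase1l1 for Angptl2 (r = 0.835). These rankings depended on the measure. With Spearman's rank correlation 4 of the 24 named genes stayed among the 3 most alike, 2 of them for Adam11, and after subtracting group means 1 did.

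Across the lists around the candidates, 0 of 195 gene tests in the 2 tested comparisons passed in limma after adjustment over all genes, and 11 (5.64%) had an unadjusted p under 0.05, near the 3.96% and 5.2% over all genes. Between the normal livers the largest rise in GKO without overlap in these lists was that of Hspa1b, with a log2 fold change of 2.22 (SE 0.87). It had 52.4, 12.6 and 2.18 TPM in GKO against a mean of 1.86 TPM in WT. Leading the other lists, Angptl6 (24.6 ± 3.51 TPM in GKO against 13.0 TPM in WT, SD, n = 3 each) had 0.88 and Ccdc80 0.75. Aldh3b1 and the PPAR alpha target Ehhadh (423 ± 32.9 against 305 TPM) had 0.47 each, and Adam23 0.34. The largest fall was that of Itga5, at -0.36.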

How the data were processed

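The authors sequenced RNA of 18 mouse samples, aligned reads to mm10 with STAR 2.7.3a, counted with featureCounts 2.0.0 and deposited TPM for 54838 genes. How TPM was computed is not given in the sources used here. TPM multiplied by exonic length (GENCODE release 21, 54809 genes matched) gave whole reads within 0.02 for 97.95% to 98.67% of values of up to 30 reads, so depth was recovered. Strand was not stated. The labels gave the groups. For each pair of groups, genes whose 6 values averaged 0.5 TPM or more were log2-transformed after adding 1 and fitted with limma 3.58.1 in R 4.3.3 (moderated statistics, intensity trend), and a call needed an adjusted p (Benjamini-Hochberg, all fitted genes) under 0.05. Only GKO against WT normal livers and GKO non-tumour against GKO normal livers were tested. Groups do not overlap when every value of one is above every value of the other. The candidates and lists were chosen with earlier results of these data known. Named genes were the 8 candidates, the 3 with the highest Pearson r to each, and from each list the largest rise and fall without overlap per comparison described. The markers shown singly were named after their values were seen. The test was checked on simulated data only for changes larger than those of the candidates in the 2 tested comparisons, so its power at their size was not measured. Alternatives were a pseudocount of 0.1, no filter or one of 5 TPM, quantile normalization or median centring, a joint model of the 18 samples, no trend, the replicate number as a block and leaving out each sample. Voom on the recovered reads, and lists and group means without WT tumour 3 or WT non-tumour liver 2, were added after seeing the data. Other computations used Python 3.11.15.

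Samples share replicate numbers across groups in the labels. Same-numbered samples deviated together (every correlation of deviations over 0.1) only in GKO against WT tumours (0.101, 0.12 and 0.197), which was not tested. In normal livers the correlations were 0.188, -0.093 and 0.125, and in GKO non-tumour against GKO normal livers -0.315, -0.099 and 0.053, so no pairing was used.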

Additional observations from a re-analysis of the deposited data

Results flagged for a closer look

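The effect of genotype had opposite directions in 2 tissues for 2 candidates, with every sample of one group beyond every sample of the other. Aldh3a2 had a log2 fold change of GKO over WT of -0.75 in non-tumour livers and 1.45 in tumours. Otud1 had -1.28 in non-tumour livers and 1.1 in tumours. The effect of tumour against non-tumour liver also had opposite directions for Otud1, at -1.35 in WT and 1.02 in GKO. For Angptl2 tumours against normal livers gave -0.20 in WT and 0.36 in GKO. None of these differences was tested, because the tumour comparison had chosen the genes. WT non-tumour liver 2, at 29.2 TPM of Otud1, enters the Otud1 values, which were -0.58 and -0.66 without it. The separation of Angptl2 between GKO tumours and GKO normal livers was lost after median centring.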

How the results depend on the processing

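In the 2 tested comparisons 0 candidates were called under every alternative that was run. In GKO against WT normal livers 5 of 8 candidates kept their sign throughout. The signs that changed were Aldh3a2 (-0.05 with median centring, -0.37 without WT normal liver 3), Adam11 (-0.02 with median centring, -0.03 with quantile normalization, -0.04 without WT normal liver 2, -0.14 without GKO normal liver 1) and Bag2 (-0.05 with either scaling, -0.02 without WT normal liver 2, -0.01 without GKO normal liver 3). In GKO non-tumour against GKO normal livers they were Aldh3a2 (0.03 without GKO non-tumour liver 2), Cadps2 (-0.10 with median centring, -0.12 with quantile normalization, -0.01 with voom, -0.04 without GKO normal liver 2, -0.09 without GKO non-tumour liver 1) and Angptl2 (0.05 and 0.00 without GKO non-tumour livers 2 and 3). All of these were 0.15 or less in size as reported. Leaving out 1 sample at a time, in the first comparison Aldh3a2 ran from -0.37 to 0.31, Adam11 from -0.14 to 0.25 and Bag2 from -0.02 to 0.13, and in the second Aldh3a2 from -0.27 to 0.03, Cadps2 from -0.09 to 0.06 and Angptl2 from -0.29 to 0.05. With the replicate number as a block, although the numbers did not pair the samples, 0 candidates were called, 557 and 709 genes had an unadjusted p under 0.05, and the adjusted p of Adam11 in the second comparison was 0.559 in place of 0.737.

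Counts without overlap moved where a mean of at least 5 TPM removed low genes: to 3 in GKO against WT tumours, 3 in WT tumours against WT non-tumour livers, 2 in GKO tumours against GKO non-tumour livers, 1 in WT non-tumour against WT normal livers, 2 in WT tumours against WT normal livers and 3 in GKO tumours against GKO normal livers. Scaling moved GKO tumours against GKO normal livers to 3 (median centring and quantile normalization) and GKO tumours against GKO non-tumour livers to 7 (quantile normalization). Leaving out 1 sample gave 2 to 4 candidates without overlap in GKO against WT non-tumour livers (4 without WT or without GKO non-tumour liver 1) and 2 to 4 in WT non-tumour against WT normal livers (4 without WT non-tumour liver 1). Fewer samples make overlap less likely by construction. The precision of Ankrd1, Bag2 and Adam11 in WT tumours is limited by their few reads, and 3 samples a group limit every comparison.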
